A study of Mus musculus with 8 samples.

Results

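Integrins are the cell surface receptors, each an alpha chain paired with a beta chain, through which cells hold on to matrix and to other cells. Laminins are trimers of an alpha, a beta and a gamma chain that build the basement membranes around Schwann cells, satellite glia, perineurium and vessels, and several integrins bind them. All 37 genes of both families whose mouse symbols match the standard names of integrin alpha chains, integrin beta chains and laminin chains were taken from the 21878 rows of an expression table, whatever their values. They comprised 7 leukocyte integrin chains, which blood cells use to stick to vessel walls and to take up targets, 19 other integrin chains and 11 laminin chains.

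The values came from paired-end RNA sequencing of dorsal root ganglia, the clusters of sensory neuron bodies beside the spinal cord, at lumbar levels 4 and 5 of C57BL/6 mice. The 4 groups were dKO SNI, dKO sham, WT SNI and WT sham, with 2 libraries each. All mice carried floxed alleles of Myh9 and Myh10, the genes for non-muscle myosin IIA and IIB heavy chains, and dKO mice also carried Advillin-Cre, a recombinase driven by a gene active in sensory neurons. SNI ganglia were taken 3 days after the sciatic nerve was cut and sham ganglia 3 days after sham surgery. The WT mice are therefore floxed mice without Cre, and other cells of a dKO ganglion are not targeted by the design. The labels do not state whether replicate libraries are from different mice, so the spread behind each p-value may be technical.

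Values are FPKM, fragments scaled to transcript length and library size, whose totals per library ran from 278310 to 339920. The read depth is unknown. Myh9 was at 24.6 and 24.4 FPKM in dKO SNI ganglia, 10.9 and 12.1 in dKO sham, 30.8 and 29.7 in WT SNI and 27.2 and 31.6 FPKM in WT sham ganglia. Myh10 was at 5.31 and 4.12 FPKM in dKO SNI ganglia, 12.2 and 14.4 in dKO sham, 13.8 and 10.4 in WT SNI and 18.1 and 23.5 FPKM in WT sham ganglia, so both targeted genes were lower in dKO than in WT within each surgery. Avil, which drives the Cre, was at 34.5 to 80.0 FPKM in dKO and 112 to 180 FPKM in WT libraries. The sum of 4 Y-linked transcripts was 38.7 and 37.4 FPKM in dKO SNI ganglia, 0 and 0.0109 in dKO sham, 0.00745 and 0 in WT SNI and 23.2 and 22.7 FPKM in WT sham ganglia. Every comparison of a single pair of groups therefore also sets libraries with Y-linked transcripts against libraries without them, and the condition and that split cannot be told apart there. The comparison of all SNI with all sham libraries and that of all dKO with all WT libraries are balanced in the number of libraries with Y-linked transcripts. They are not balanced in level, since the sum was higher in dKO SNI than in WT sham. By the test described below, 2 of the 4 transcripts were called higher in SNI than in sham, and 2 in dKO than in WT. In WT sham 2 the sum of 10 skeletal muscle markers was 709 FPKM, against 49.1 to 93.5 FPKM in the other libraries.

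Of the 37 genes, 26 reached 1 FPKM in at least 2 libraries and were tested with limma on log2(FPKM + 1), with p-values adjusted by Benjamini-Hochberg over all 12884 genes tested and called below 0.05. Log2 changes below are on that scale, which understates the change of low genes. The 11 below that level included Itgax, Itgad, Itgae, Itga2, Itga8, Itga10, Itga11, Itgb6, Lama1 and Lama3. A further 6 (Itgal, Itgb7, Itga5, Itga9, Lama5 and Lamb3) reached it only in SNI libraries, and Itgb7 only in the 2 dKO SNI libraries. These 6 were tested only through those libraries, so counts of tested genes describe the families and support nothing by themselves.

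Promoter sequences are shown for Itgam, Itgax and Itgb7, the 3 leukocyte chains with a window. That of the fibronectin receptor chain Itga5 is shown as 1 of the 15 other integrins with a window. They are the 250 bases before the annotated start, 5′ to 3′ on the gene's strand, from RefSeq on GRCm38.p6. The windows are chr7:128062390-128062639 on the plus strand for Itgam, chr7:128129300-128129549 on the plus strand for Itgax, chr15:102231936-102232185 on the minus strand for Itgb7 and chr15:103366792-103367041 on the minus strand for Itga5. Capitals mark matches, on either strand, to the core of the motif of PU.1, the myeloid transcription factor (GAGGAA), or to the AP-1 motif (TGANTCA).
Itgam: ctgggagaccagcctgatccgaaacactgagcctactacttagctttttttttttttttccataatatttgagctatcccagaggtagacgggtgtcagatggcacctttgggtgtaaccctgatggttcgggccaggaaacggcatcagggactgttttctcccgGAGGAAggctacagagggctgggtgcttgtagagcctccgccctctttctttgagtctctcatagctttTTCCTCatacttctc
Itgax: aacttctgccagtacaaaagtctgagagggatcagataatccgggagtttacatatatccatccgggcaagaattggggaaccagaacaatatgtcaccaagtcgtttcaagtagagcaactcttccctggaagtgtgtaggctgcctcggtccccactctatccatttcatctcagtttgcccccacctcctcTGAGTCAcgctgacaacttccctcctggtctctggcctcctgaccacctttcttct
Itgb7: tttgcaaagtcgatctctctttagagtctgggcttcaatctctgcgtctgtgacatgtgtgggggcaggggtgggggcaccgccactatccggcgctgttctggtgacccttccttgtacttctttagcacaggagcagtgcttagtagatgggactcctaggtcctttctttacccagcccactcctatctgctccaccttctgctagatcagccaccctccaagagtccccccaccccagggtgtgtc
Itga5: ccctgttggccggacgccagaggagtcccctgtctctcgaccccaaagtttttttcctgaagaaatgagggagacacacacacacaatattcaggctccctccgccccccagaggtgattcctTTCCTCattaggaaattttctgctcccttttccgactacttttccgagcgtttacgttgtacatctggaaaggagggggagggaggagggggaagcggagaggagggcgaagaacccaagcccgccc
The Itgam window holds the PU.1 core at 84 and 15 bases before the start, the Itga5 window holds it at 127 bases, and the Itgax window holds the AP-1 motif at 56 bases. The Itgb7 window holds neither. RefSeq windows were found for 23 of the 37 genes, 26 windows in all; Itgb2, Itgal and Itga7 had none in the table used here. The PU.1 core stood in 13 of the 26 windows, of 1 leukocyte chain, 7 other integrins and 5 laminin chains, and in 23.25% of all 32851 windows of the same length. The AP-1 motif stood in 1 of the 26 and in 6.749% of all windows, and the cyclic AMP response element (TGACGTCA) in 0 of the 26 and in 1.546% of all windows. A match describes letters only.

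Of the 7 leukocyte integrin chains, 4 were tested. All 4 were called higher in dKO SNI than in dKO sham, where 23.8% of all genes were. In WT SNI against WT sham, 2 of the 4 were, where 13.6% of all genes were. Itgal and Itgb7 were tested only through SNI libraries, so these counts support nothing by themselves. The 4 chains (Itgb2, Itgam, Itgal and Itgb7) were 3.77 to 5.66 times as high in dKO SNI as in dKO sham. They were 2.13 to 2.75 times as high in dKO SNI as in WT SNI, as ratios of group means. Between the sham groups none of them was called. Itgb2 encodes the beta chain shared by the main leukocyte integrins. It was at 21.9 and 24.2 FPKM in dKO SNI ganglia, 3.39 and 4.77 in dKO sham, 6.74 and 10.4 in WT SNI and 2.72 and 4.12 FPKM in WT sham ganglia. Apart from the sham groups, which overlapped with each other, no groups overlapped. Its log2 change was 2.26 ± 0.22 (limma SE, adjusted p = 0.000123) in dKO SNI against dKO sham, a 5.66-fold difference of means, and 1.11 ± 0.22 (limma, adjusted p = 0.00814) in WT SNI against WT sham, 2.51-fold. It was also higher in dKO SNI than in WT SNI, by 1.35 ± 0.22 (limma, adjusted p = 0.0103). The WT call was lost without WT sham 1 (0.88, adjusted p = 0.059) or WT SNI 2 (0.83, adjusted p = 0.0645).

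Itgam encodes CD11b, the alpha chain that pairs with Itgb2 on macrophages, monocytes and neutrophils. It lies on chromosome 7 at 128062640 to 128118491 of GRCm38, next to its paralogs Itgax and Itgad, and the annotated gene Gm49368 on the same strand overlaps its exons, so reads of these genes may not be fully separated. Its level was 16.6 and 15.9 FPKM in dKO SNI ganglia, 2.77 and 3.20 in dKO sham, 5.82 and 9.48 in WT SNI and 1.92 and 3.12 FPKM in WT sham ganglia. Again only the sham groups overlapped. The log2 change was 2.12 ± 0.22 in dKO SNI against dKO sham (limma, adjusted p = 0.000147), 1.28 ± 0.22 in WT SNI against WT sham (limma, adjusted p = 0.00385) and 1.03 ± 0.22 in dKO SNI against WT SNI (limma, adjusted p = 0.0145). The ratio of Itgam to Itgb2, a ratio of length-scaled levels, lay between 0.655 and 0.908 in all 8 libraries, so the pair kept a similar proportion while both levels moved.

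Itgal encodes CD11a, the alpha chain of lymphocytes and other leukocytes that binds ICAM proteins. It was at 3.90 and 3.56 FPKM in dKO SNI ganglia, 0.853 and 0.989 in dKO sham, 1.02 and 2.03 in WT SNI and 0.566 and 0.768 FPKM in WT sham ganglia, and no pair of groups overlapped. It rose by 1.30 ± 0.19 in dKO SNI against dKO sham (limma, adjusted p = 0.000709) and by 0.94 ± 0.19 in dKO SNI against WT SNI (adjusted p = 0.0132). In WT SNI against WT sham the change was 0.57 ± 0.19, with an adjusted p of 0.0585. Itgb7, the beta chain of the lymphocyte homing integrin, was at 1.58 and 1.96 FPKM in dKO SNI ganglia, 0.311 and 0.628 in dKO sham, 0.470 and 0.818 in WT SNI and 0.324 and 0.256 FPKM in WT sham ganglia. The dKO SNI libraries stood above all others and were the only ones to reach 1 FPKM, so Itgb7 was tested only through them. Its change was 0.92 ± 0.17 in dKO SNI against dKO sham (limma, adjusted p = 0.00248), 0.34 ± 0.17 in WT SNI against WT sham (adjusted p = 0.18) and 0.76 ± 0.17 in dKO SNI against WT SNI (adjusted p = 0.0177).

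The other leukocyte alpha chains were near the bottom of the table. Itgax encodes CD11c of dendritic cells and some macrophages, and was at 0.364 and 0.519 FPKM in dKO SNI ganglia, 0.261 and 0.264 in dKO sham, 0.204 and 0.220 in WT SNI and 0.112 and 0.0834 FPKM in WT sham ganglia. Both dKO SNI libraries were the highest and both WT sham libraries the lowest. Itgad, the CD11d chain, was at 0.175 and 0.347 FPKM in dKO SNI ganglia, 0.0371 and 0.0493 in dKO sham, 0.0730 and 0.221 in WT SNI and 0.0366 and 0 FPKM in WT sham ganglia. SNI exceeded sham without overlap in both genotypes. Its exons overlap those of Cox6a2, a muscle gene at 0.350 to 26.3 FPKM with its maximum in WT sham 2, and without a stated strand the reads of the overlap cannot be told apart. Itgae, the CD103 chain of tissue T cells and some dendritic cells, was at 0.105 and 0.226 FPKM in dKO SNI ganglia, 0.0768 and 0.0699 in dKO sham, 0.138 and 0.0633 in WT SNI and 0.0154 and 0.0689 FPKM in WT sham ganglia. The SNI and sham libraries overlapped in WT and not in dKO. When all genes above 0 were tested with no filter, Itgad was called higher in dKO SNI than in dKO sham (0.27 ± 0.08, limma, adjusted p = 0.0458) and Itgax in dKO SNI than in WT SNI (0.25 ± 0.06, adjusted p = 0.0495).

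**Figure D1:**
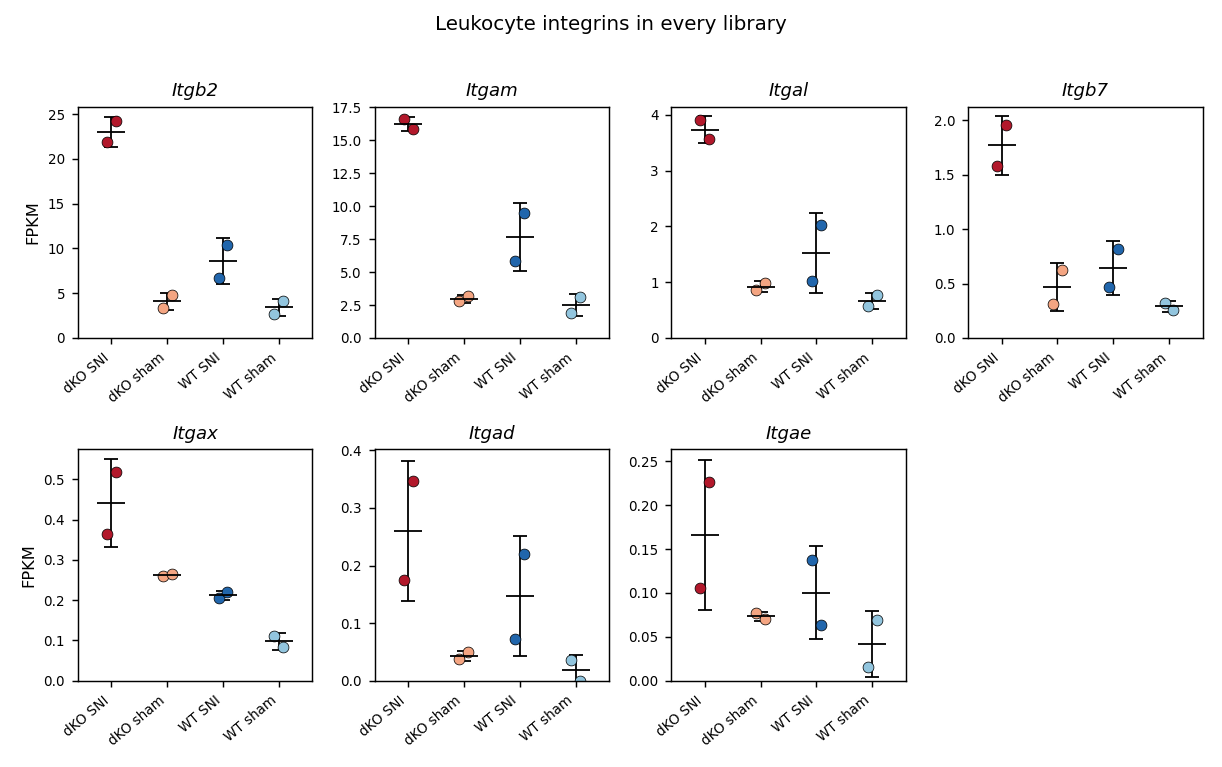
FPKM of the 7 leukocyte integrin chains, with a dot for each library and a dash with bar for the mean ± SD of 2 libraries in dKO SNI, dKO sham, WT SNI and WT sham; each linear axis starts at 0. Itgb2 and Itgam stand highest in dKO SNI (21.9 to 24.2 and 15.9 to 16.6 FPKM) and between sham and dKO SNI in WT SNI.

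Summed over the 7 chains, the leukocyte integrins made up 44.6 and 46.7 FPKM in dKO SNI ganglia, 7.70 and 9.96 in dKO sham, 14.5 and 23.3 in WT SNI and 5.69 and 8.42 FPKM in WT sham ganglia. The sum was thus higher after axotomy in both genotypes and highest in dKO SNI, with the sham groups overlapping. All 4 tested chains were called higher in dKO SNI than in dKO sham, where 23.8% of all genes were called higher, and 2 of the 4 in WT SNI than in WT sham, where 13.6% were. All 4 were also called higher in dKO SNI than in WT SNI, where 10.7% of all genes were, and these comparisons share the dKO SNI libraries. Itgb7 reached 1 FPKM only in those 2 libraries, so the count of 4 supports nothing by itself. Leaving out WT SNI 1 or dKO SNI 2 ended every call of that last comparison, with Itgb2 at 1.07 (adjusted p = 0.078) and 1.28 (adjusted p = 0.0694), and the other 3 chains at 0.60 to 1.06 (adjusted p of 0.0823 to 0.126).

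The summed markers of macrophages, of neutrophils and of T and NK cells were, like these integrins, highest in both dKO SNI libraries. This was not particular to leukocytes. Platelet and megakaryocyte markers summed to 137 and 115 FPKM in dKO SNI and 32.7 to 78.1 FPKM in the other libraries. For endothelial markers the sums were 75.6 and 76.5 against 47.8 to 62.7 FPKM, and for fibroblast and perineurium markers 1142 and 1443 against 238 to 924 FPKM. Those of B cells and of dendritic cells were not. The sum of 15 macrophage markers was 1849 and 1818 FPKM in dKO SNI ganglia, 222 and 351 in dKO sham, 791 and 1006 in WT SNI and 192 and 190 FPKM in WT sham ganglia. Of these 15, 15 were called higher in dKO SNI than in dKO sham, 14 in WT SNI than in WT sham and 9 in dKO SNI than in WT SNI. The sum of 14 neutrophil markers was 7444 and 7295 FPKM in dKO SNI ganglia, 739 and 1232 in dKO sham, 1358 and 2637 in WT SNI and 757 and 1014 FPKM in WT sham ganglia, with 14 called higher in dKO SNI than in dKO sham, 7 in WT SNI than in WT sham and 14 in dKO SNI than in WT SNI. For 12 T and NK cell markers the sum was 22.2 and 25.0 FPKM in dKO SNI and 1.49 to 5.25 FPKM in the other libraries. The 8 B cell markers summed to 27.1 and 17.4 FPKM in dKO SNI and 21.0 to 26.9 FPKM in the other libraries. Of the 4 tested, none was called higher and 1 was called lower both for dKO SNI against dKO sham and for dKO SNI against WT SNI, while for WT SNI against WT sham 3 were higher and 1 lower. The 8 dendritic cell markers, a list that holds Itgae, summed to 8.22 and 8.22 FPKM in dKO SNI ganglia, 5.63 and 5.44 in dKO sham, 8.20 and 8.60 in WT SNI and 5.51 and 5.48 FPKM in WT sham ganglia. Of the 3 tested, 1 was called higher after axotomy in each genotype and 0 in dKO SNI against WT SNI. Of all genes, 23.8% were called higher and 24.6% lower in dKO SNI against dKO sham. The shares were 13.6% and 9.38% in WT SNI against WT sham, and 10.7% and 13.4% in dKO SNI against WT SNI. With genotypes averaged, SNI against sham gave 2 of these 3 higher and 0 lower, and 3 of the 4 B cell markers higher and 1 lower. The same comparison gave 15 of 15 macrophage, 14 of 14 neutrophil and 2 of 3 T and NK cell markers higher, against 29.5% of all genes higher and 25.5% lower. No marker of these lists was at 0 in all libraries. The ratio of Itgb2 to Csf1r, the macrophage growth factor receptor, was 0.871 and 1.00 in dKO SNI, 0.737 and 0.884 in dKO sham, 0.366 and 0.519 in WT SNI and 0.657 and 1.46 in WT sham, so it was lowest in WT SNI. The part of these markers in the integrin result was not tested, and in whole ganglia fewer cells of a type and less RNA per cell cannot be told apart.

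Axotomy changed the balance of the laminin-binding integrins in both genotypes. Itga7 encodes the alpha7 chain, a laminin receptor that injured sensory neurons are known to make. It was at 83.5 and 90.2 FPKM in dKO SNI ganglia, 18.5 and 22.7 in dKO sham, 92.5 and 76.5 in WT SNI and 18.4 and 21.2 FPKM in WT sham ganglia. SNI and sham did not overlap, while dKO and WT overlapped within each surgery. The log2 change was 2.03 ± 0.16 in dKO SNI against dKO sham (limma, adjusted p = 4.93e-05) and 2.03 ± 0.16 in WT SNI against WT sham (limma, adjusted p = 6.36e-05), 4.22-fold and 4.26-fold as ratios of means. For the difference between these responses the estimate was -0.0038 ± 0.22 (limma, adjusted p = 0.995). Itga7 lies on chromosome 10 at 128933818 to 128958282 of GRCm38, and an opposite-strand gene whose exons overlap it, Mettl7b, was at most at 0.123 FPKM.

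Itga3, which encodes the alpha3 chain that also binds laminins, moved the other way. Its level was 5.85 and 4.91 FPKM in dKO SNI ganglia, 12.3 and 13.8 in dKO sham, 9.92 and 7.96 in WT SNI and 15 and 15.6 FPKM in WT sham ganglia. The groups did not overlap, and within each surgery dKO was below WT. It fell by 1.14 on the log2 scale (SE 0.14) in dKO SNI against dKO sham (limma, adjusted p = 0.000328), by 0.72 (SE 0.14) in WT SNI against WT sham (adjusted p = 0.00783) and by 0.64 (SE 0.14) in dKO SNI against WT SNI (adjusted p = 0.0168). In dKO sham against WT sham the difference was -0.21 ± 0.14, which was not called (adjusted p = 0.606). The WT call was lost without WT sham 2 (adjusted p = 0.063) or WT SNI 2 (adjusted p = 0.0677), and that between the SNI groups without WT SNI 1 (adjusted p = 0.128) or dKO SNI 2 (adjusted p = 0.122). Itga3 was the only tested integrin or laminin gene called lower in dKO SNI than in dKO sham, where 24.6% of all genes were called lower, in WT SNI than in WT sham, where 9.38% were, and in dKO SNI than in WT SNI, where 13.4% were. The alpha6 chain gene Itga6, a laminin receptor of many cells, ranged from 10.4 to 13.6 FPKM over the 8 libraries and was called in no comparison.

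Of the summed FPKM of Itga3, Itga6 and Itga7, which are length-scaled levels, Itga7 held 81.9 and 85.5% in dKO SNI, 42.5 and 45.9% in dKO sham, 80.5 and 78.0% in WT SNI and 41.5 and 44.5% in WT sham. Itga3 held 5.74 and 4.65% in dKO SNI, 28.2 and 28.0% in dKO sham, 8.63 and 8.12% in WT SNI and 33.7 and 32.8% in WT sham. Itga7 thus made up most of this sum in SNI ganglia, whereas in sham ganglia the 3 shares lay between 22.8 and 45.9%. The summed level of 15 sensory neuron markers was 4155 and 2868 FPKM in dKO SNI ganglia, 6518 and 7418 in dKO sham, 7152 and 5450 in WT SNI and 7235 and 8069 FPKM in WT sham ganglia. Of these 15, 13 were called lower in dKO SNI than in dKO sham, 6 in WT SNI than in WT sham and 10 in dKO SNI than in WT SNI. Of all genes, 24.6%, 9.38% and 13.4% were called lower in the same order. The part of these markers in the fall of Itga3 was not tested.

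Itgb4 encodes the beta4 chain, which pairs with alpha6 in perineurium and myelinating Schwann cells. It was at 6.26 and 7.25 FPKM in dKO SNI ganglia, 4.43 and 5.35 in dKO sham, 4.76 and 4.98 in WT SNI and 5.01 and 4.32 FPKM in WT sham ganglia. Only dKO SNI stood apart, by 0.40 ± 0.14 against dKO sham (limma, adjusted p = 0.0394) and, without a call, by 0.40 ± 0.14 against WT SNI (adjusted p = 0.0628). The call was lost in 6 of the 8 fits with a library left out, most clearly without dKO SNI 2 (adjusted p = 0.206). The 12 fibroblast and perineurium markers, a list that holds Itgb4 itself, summed to 1142 and 1443 FPKM in dKO SNI ganglia, 478 and 603 in dKO sham, 630 and 924 in WT SNI and 335 and 238 FPKM in WT sham ganglia, and their part was not tested.

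**Figure D2:**
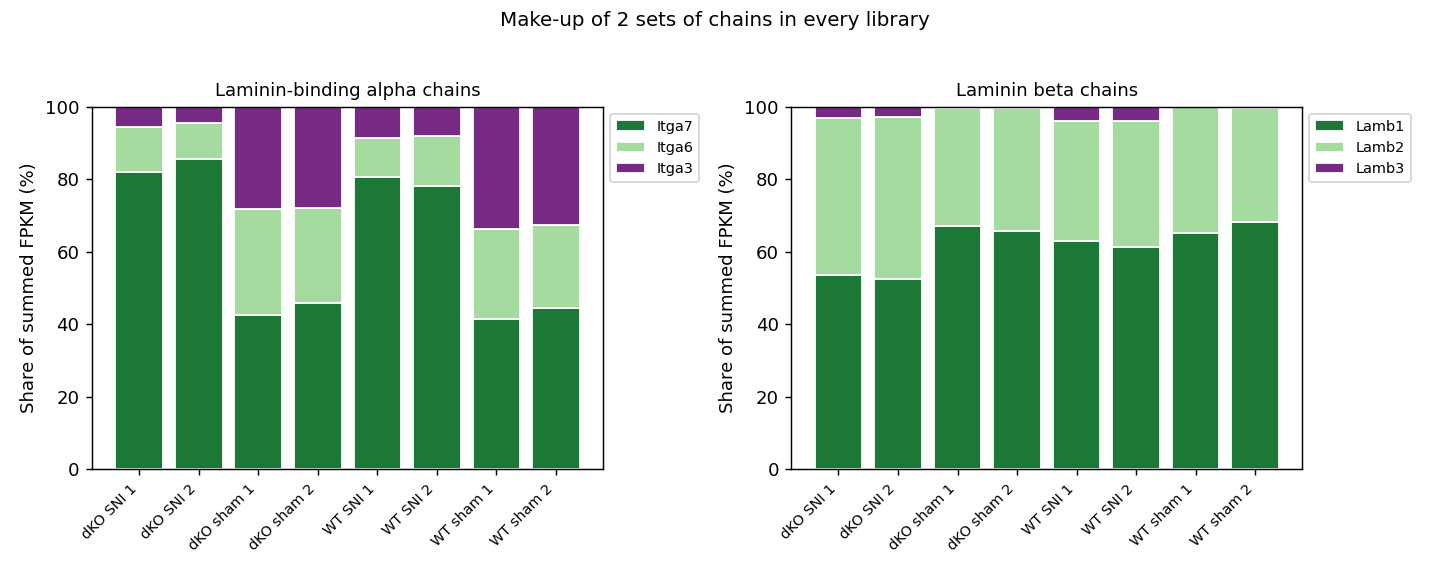
Share, in percent of summed FPKM, of Itga7, Itga6 and Itga3 (laminin-binding alpha chains) and of Lamb1, Lamb2 and Lamb3 (laminin beta chains), stacked for each of the 8 libraries. Itga7 fills 78.0 to 85.5% of its bars in SNI libraries and 41.5 to 45.9% in sham libraries.

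Itgb1 encodes the beta chain shared by most matrix integrins and was the most abundant of all 37 genes in every group. It was at 171 and 179 FPKM in dKO SNI ganglia, 117 and 101 in dKO sham, 176 and 205 in WT SNI and 102 and 96 FPKM in WT sham ganglia. All SNI libraries were above all sham libraries. The log2 change was 0.69 ± 0.15 in dKO SNI against dKO sham (limma, adjusted p = 0.00511) and 0.94 ± 0.15 in WT SNI against WT sham (limma, adjusted p = 0.00315). Of the summed FPKM of the 8 beta chains, Itgb1 held 77.5 and 77.3% in dKO SNI, 80.5 and 78.3% in dKO sham, 84.5 and 84.3% in WT SNI and 80.8 and 79.9% in WT sham. Itgb2 held 9.89 and 10.4% in dKO SNI, 2.33 and 3.71% in dKO sham, 3.24 and 4.29% in WT SNI and 2.16 and 3.43% in WT sham. By mean level Itgb2 was the second most abundant beta chain in dKO SNI, whereas Itgb5 was second in each other group.

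Itga4 encodes the alpha4 chain that pairs with Itgb1 or Itgb7 and binds fibronectin and VCAM1, on leukocytes among other cells. It was at 3.31 and 2.47 FPKM in dKO SNI ganglia, 1.68 and 1.34 in dKO sham, 1.75 and 2.23 in WT SNI and 0.838 and 0.859 FPKM in WT sham ganglia. No group overlapped another within a surgery or a genotype. It rose by 0.63 ± 0.16 in dKO SNI against dKO sham (limma, adjusted p = 0.0102) and by 0.69 ± 0.16 in WT SNI against WT sham (limma, adjusted p = 0.015), and was 0.38 ± 0.16 higher in dKO SNI than in WT SNI, which was not called (adjusted p = 0.111). The dKO call was lost without dKO sham 2 (adjusted p = 0.0578) or dKO SNI 1 (adjusted p = 0.0664), and the WT call without WT sham 1, WT sham 2 or WT SNI 2 (adjusted p of 0.0724 to 0.108). Its exons overlap Cerkl, at 0.208 to 0.304 FPKM. Itga9, whose alpha9 chain binds tenascin C, was at 0.521 to 1.10 FPKM and was called in no comparison.

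Among the chains that bind the RGD sequence of fibronectin and vitronectin or pair with such a chain, Itga5 and Itgb5 were called after axotomy in at least 1 genotype. Itga5 encodes the alpha5 chain of the fibronectin receptor and was at 1.88 and 3.02 FPKM in dKO SNI ganglia, 0.595 and 0.763 in dKO sham, 1.07 and 1.73 in WT SNI and 0.348 and 0.563 FPKM in WT sham ganglia. SNI exceeded sham in both genotypes, by 1.02 ± 0.20 in dKO (limma, adjusted p = 0.00308) and by 0.71 ± 0.20 in WT (limma, adjusted p = 0.033), a call lost without WT sham 1, WT sham 2 or WT SNI 2 (0.51 to 0.82, adjusted p of 0.0845 to 0.212). Itgb5, a beta chain that pairs with alpha v, was at 10.9 and 11.9 FPKM in dKO SNI ganglia, 6.34 and 8.68 in dKO sham, 9.94 and 9.42 in WT SNI and 8.09 and 7.55 FPKM in WT sham ganglia. It rose by 0.56 ± 0.15 in dKO SNI against dKO sham (limma, adjusted p = 0.0132), and by 0.36 without dKO sham 1, where the call was lost (adjusted p = 0.0849), as it was without dKO SNI 2 (adjusted p = 0.0788).

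Itgav, the alpha v chain itself, was at 5.66 and 6.45 FPKM in dKO SNI ganglia, 5.24 and 3.79 in dKO sham, 5.57 and 6.79 in WT SNI and 4.73 and 5.00 FPKM in WT sham ganglia. SNI was above sham in each genotype, and the gene was called only with all SNI set against all sham libraries (0.33 ± 0.11, limma, adjusted p = 0.0338), with adjusted p of 0.0713 to 0.114 without WT sham 1, WT sham 2, WT SNI 2, dKO sham 2 or dKO SNI 2. Itgb3, which pairs with alpha v and with the platelet chain of Itga2b, was at 4.51 and 2.91 FPKM in dKO SNI ganglia, 5.52 and 4.57 in dKO sham, 3.81 and 4.00 in WT SNI and 2.70 and 2.36 FPKM in WT sham ganglia. Its SNI libraries lay below the sham libraries in dKO and above them in WT, with no call in any comparison. Itga2b itself was at 0.617 to 3.13 FPKM and Itgb8, a partner of alpha v, at 3.55 to 8.52 FPKM. Both went without a call, as did Itga1, the collagen-binding alpha1 chain, at 0.606 to 1.48 FPKM. The other collagen-binding chains Itga2, Itga10 and Itga11 stayed at or under 0.541 FPKM, and Itga8 and Itgb6 at or under 0.399 FPKM.

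**Figure D3:**
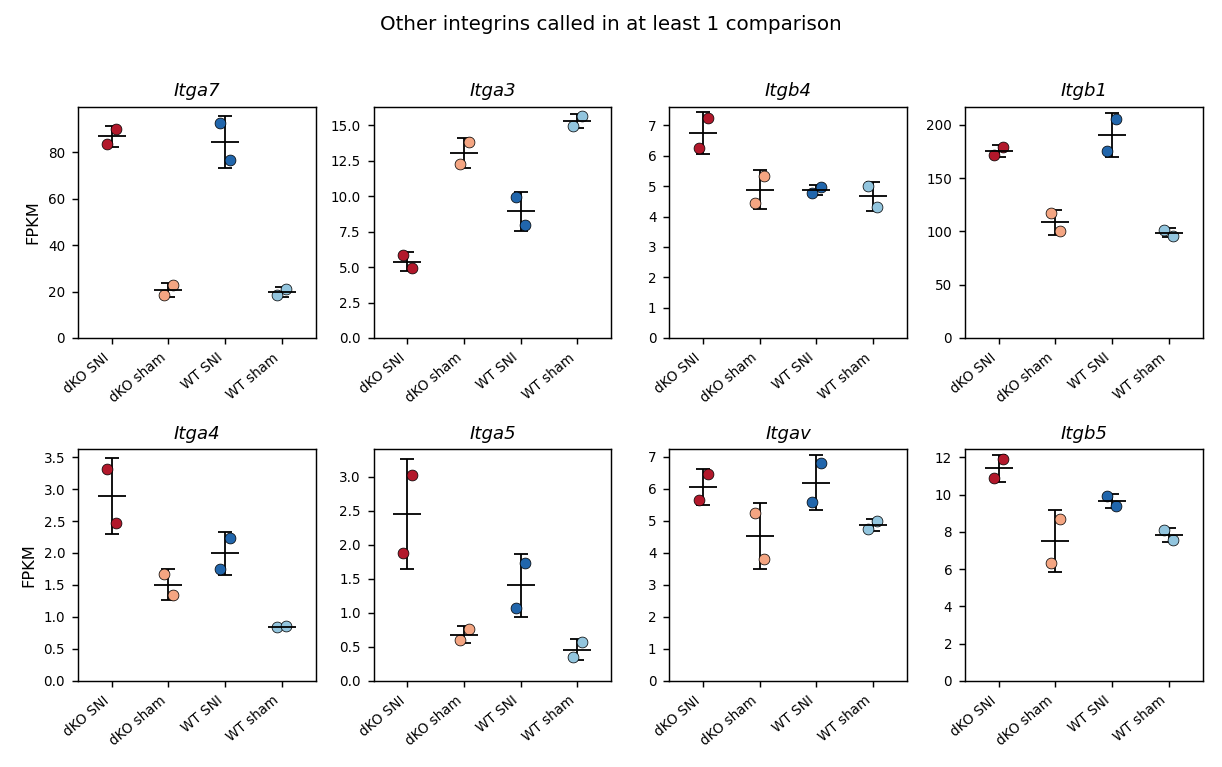
FPKM of the named integrin chains outside the leukocyte group, with a dot for each library and a dash with bar for the mean ± SD of 2 libraries per group; each linear axis starts at 0. Itga7 and Itgb1 stand higher in both SNI groups than in both sham groups, and Itga3 stands lower.

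After axotomy Lamb3 and Lama5 rose in both genotypes, and both reached 1 FPKM in SNI libraries only. Lamb3, the beta3 chain known mainly from epithelial laminin, was at 0.920 and 1.00 FPKM in dKO SNI ganglia, 0.109 and 0.124 in dKO sham, 1.20 and 1.28 in WT SNI and 0 and 0.0650 FPKM in WT sham ganglia. SNI and sham did not overlap in either genotype. The log2 change was 0.81 ± 0.14 in dKO SNI against dKO sham (limma, adjusted p = 0.00149) and 1.12 ± 0.14 in WT SNI against WT sham (limma, adjusted p = 0.000871). Its level in dKO SNI was 8.22 times that in dKO sham, and no ratio is given for WT, where a sham library is listed at 0. Of the summed FPKM of the 3 beta chains, Lamb3 held 3.06 and 3.01% in dKO SNI, 0.408 and 0.416% in dKO sham, 3.87 and 4.10% in WT SNI and 0 and 0.281% in WT sham. Lama3, the alpha3 chain that accompanies it in epithelium, was at 0.373 to 0.740 FPKM, below the level for testing, and Krt5, a keratin of basal epithelium, was at 0 in all libraries. The 6 epidermal and epithelial markers summed to 9.67 to 37.2 FPKM over the libraries, and only Cdh1 was high enough to be tested. Cdh1 was at 8.73 to 36.9 FPKM and was called lower in SNI than in sham with genotypes averaged (-1.09 ± 0.12, limma, adjusted p = 9.84e-05). The part of epithelial cells was not tested.

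Lama5, the alpha5 chain of vessel and mature basement membranes, was at 1.95 and 2.06 FPKM in dKO SNI ganglia, 0.611 and 0.638 in dKO sham, 1.65 and 1.29 in WT SNI and 0.450 and 0.654 FPKM in WT sham ganglia. It rose by 0.89 ± 0.14 in dKO (limma, adjusted p = 0.00117) and by 0.67 ± 0.14 in WT (limma, adjusted p = 0.0111) after axotomy. The WT call was lost without WT sham 1 (adjusted p = 0.0852) or WT SNI 1 (adjusted p = 0.053). Of the summed FPKM of the 5 alpha chains it held 12.3 and 15.5% in dKO SNI, 4.59 and 4.80% in dKO sham, 11.2 and 9.05% in WT SNI and 4.46 and 6.94% in WT sham.

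Lamb2, the beta2 chain found at synapses and in perineurium and Schwann cell basement membrane, was at 13.0 and 14.8 FPKM in dKO SNI ganglia, 8.71 and 10.1 in dKO sham, 10.2 and 10.9 in WT SNI and 7.69 and 7.28 FPKM in WT sham ganglia. SNI lay above sham within each genotype and dKO above WT within each surgery, without overlap. It rose by 0.52 ± 0.13 in dKO SNI against dKO sham (limma, adjusted p = 0.00913) and by 0.44 ± 0.13 in WT SNI against WT sham (limma, adjusted p = 0.036). The dKO call was lost without dKO sham 1 (adjusted p = 0.0556) or dKO SNI 2 (adjusted p = 0.0661), and the WT call without any 1 of the 4 WT libraries. Lamb1, the beta1 chain, was the most abundant laminin gene in every group, at 14.3 to 19.6 FPKM. It held 53.6 and 52.5% of the summed beta chains in dKO SNI, 67.1 and 65.8% in dKO sham, 63.0 and 61.2% in WT SNI and 65.0 and 68.2% in WT sham.

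Lama2, Lama4, Lamb1 and Lamc1, chains of the laminins of Schwann cells and vessels, were lowest in WT sham, with the other 3 groups close to each other. Lamc1, the gamma1 chain of most laminins, was at 12.1 and 9.22 FPKM in dKO SNI ganglia, 11.9 and 12.6 in dKO sham, 13.7 and 11.9 in WT SNI and 8.64 and 7.52 FPKM in WT sham ganglia. WT sham lay below the other groups, which overlapped. Lama4, of vessels and developing nerve, was at 8.28 and 6.97 FPKM in dKO SNI ganglia, 7.64 and 8.18 in dKO sham, 7.89 and 7.93 in WT SNI and 5.56 and 5.53 FPKM in WT sham ganglia. Lama2, the alpha2 chain whose loss causes muscular dystrophy with nerve disease, was at 4.93 and 3.73 FPKM in dKO SNI ganglia, 4.03 and 3.77 in dKO sham, 4.51 and 4.44 in WT SNI and 3.21 and 2.28 FPKM in WT sham ganglia. In WT SNI against WT sham these 3 genes rose, Lamc1 by 0.60 ± 0.15 (limma, adjusted p = 0.021), Lama2 by 0.56 ± 0.16 (adjusted p = 0.036) and Lama4 by 0.45 ± 0.13 (adjusted p = 0.0317). In dKO SNI against dKO sham their changes were -0.19 ± 0.15, 0.11 ± 0.16 and -0.05 ± 0.13 in the same order, with no call. The WT calls of Lamc1 and Lama4 were lost without any 1 of the 4 WT libraries, and that of Lama2 without WT sham 2 (0.38, adjusted p = 0.265), WT SNI 1 or WT SNI 2.

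**Figure D4:**
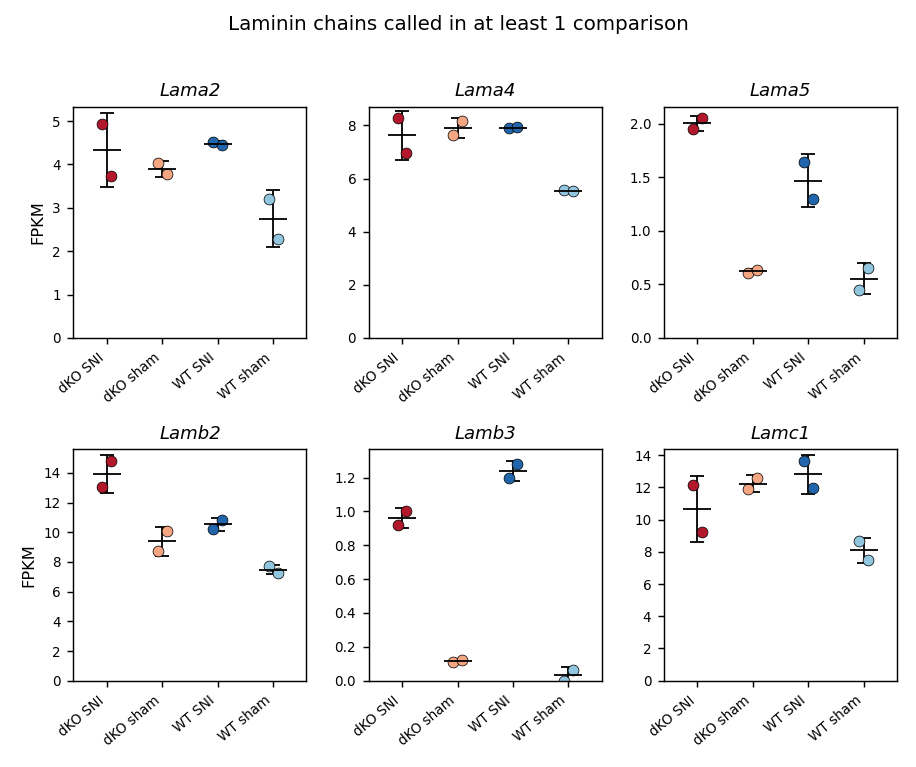
FPKM of the named laminin chains, with a dot for each library and a dash with bar for the mean ± SD of 2 libraries per group; each linear axis starts at 0. Lamb3 and Lama5 stand higher in both SNI groups than in both sham groups, whereas Lamc1, Lama4 and Lama2 are lowest in WT sham.

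In dKO sham against WT sham, 7 of the 8 tested laminin chains were higher in dKO without overlap, as were 27.8% of all genes, and none of the 26 tested genes was called, where 0.155% of all genes were. At an unadjusted p below 0.05, 7 of the 26 differed, 5 of them laminin chains, against 1397 of the 12884 genes. The largest of these laminin differences were 0.55 ± 0.15 for Lamc1 (limma, adjusted p = 0.258) and 0.44 ± 0.13 for Lama4 (adjusted p = 0.263). The median over the 8 chains was 0.31, against 0.04 over all genes. The sum of the 11 laminin chains was 59.5 and 57.3 FPKM in dKO SNI ganglia, 53.5 and 57.2 in dKO sham, 60.8 and 59.8 in WT SNI and 41.8 and 41.2 FPKM in WT sham ganglia, so WT sham stood below the others. The sum of 12 Schwann cell markers was 3395 and 2852 FPKM in dKO SNI ganglia, 3308 and 4807 in dKO sham, 3990 and 3427 in WT SNI and 2956 and 2450 FPKM in WT sham ganglia, and that of 9 satellite glia markers was 2361 and 1916 FPKM in dKO SNI ganglia, 3105 and 2774 in dKO sham, 2512 and 2280 in WT SNI and 1912 and 1681 FPKM in WT sham ganglia. In dKO sham against WT sham, 5 of the 12 Schwann cell, 5 of the 9 satellite glia and 7 of the 12 fibroblast and perineurium markers differed at an unadjusted p below 0.05, with 0, 0 and 2 called. Muscle transcripts were high in WT sham 2. The part of these markers in the laminin levels was not tested.

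Whether the axotomy response differed between genotypes was tested as dKO SNI minus dKO sham minus the same difference in WT. No integrin or laminin gene was called, with 0.0543% of all genes called and 8 of the 26 at an unadjusted p below 0.05, which were all 4 tested leukocyte chains, 1 other integrin and 3 laminins. Of all 12884 genes, 1863 were at that p. Nearest the threshold were Itgb2 (1.15 ± 0.32, limma, adjusted p = 0.239), Lamc1 (-0.80 ± 0.22, adjusted p = 0.239) and Itgb3 (-0.85 ± 0.25, adjusted p = 0.251). The estimate was above 0 for the leukocyte chains, with a median of 0.78, and the median was -0.43 for the 8 tested laminin chains and -0.08 over all genes. Itgb7 was tested only through the dKO SNI libraries, and Itgal, Lama5 and Lamb3 only through SNI libraries. The counts and medians of these classes therefore support nothing by themselves. This contrast sets dKO SNI and WT sham against dKO sham and WT SNI, the same division of libraries as the Y-linked transcripts, so genotype-dependent response and that division cannot be told apart.

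Set against each other with genotypes averaged, SNI and sham gave 14 genes called higher and 1 lower of the 26, where 29.5% and 25.5% of all genes were called higher and lower. The leukocyte chains rose by 1.70 ± 0.15 (Itgam, limma, adjusted p = 3.82e-05), 1.68 ± 0.16 (Itgb2, adjusted p = 4.49e-05), 0.94 ± 0.14 (Itgal) and 0.63 ± 0.12 (Itgb7). Among other integrins, Itga7 rose by 2.03 ± 0.11 (adjusted p = 3.31e-06), Itga5 by 0.87 ± 0.14, Itgb1 by 0.81 ± 0.11, Itga4 by 0.66 ± 0.11 and Itgb5 by 0.42 ± 0.11, and Itga3 fell by 0.93 (SE 0.10, adjusted p = 9.43e-05). The laminin chains called were Lamb3 (0.96 ± 0.10), Lama5 (0.78 ± 0.10), Lamb2 (0.48 ± 0.09) and Lama2 (0.34 ± 0.11), the last not without WT sham 2, WT SNI 1, WT SNI 2, dKO sham 1, dKO sham 2 or dKO SNI 1. The median log2 change was 1.31 for the 4 tested leukocyte chains, 0.28 for the 14 other integrins and 0.27 for the 8 laminin chains, against 0.04 over all genes. Itgal, Itgb7, Itga5, Itga9, Lama5 and Lamb3 were tested only through SNI libraries. The count of 14 and these medians therefore support nothing by themselves.

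With surgeries averaged, dKO against WT gave 6 genes called higher and 1 lower, where 11.8% and 10.4% of all genes were called higher and lower. These were Itgb2 (0.78 ± 0.16, limma, adjusted p = 0.0157), Itgam (0.61 ± 0.15, adjusted p = 0.0257), Itgal (0.57 ± 0.14, adjusted p = 0.0217), Itgb7 (0.47 ± 0.12, adjusted p = 0.0287), Itga4 (0.41 ± 0.11, adjusted p = 0.0339) and Lamb2 (0.33 ± 0.09, adjusted p = 0.033), with Itga3 lower (-0.43 ± 0.10, adjusted p = 0.0221). Itgb7 was tested only through its level in the dKO SNI libraries. Between the sham groups alone Itgb2 differed by 0.21 ± 0.22 (adjusted p = 0.753). None of these 7 calls held in every library left out, and without WT SNI 1 or dKO sham 2 none of the 26 genes was called.

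**Figure D5:**
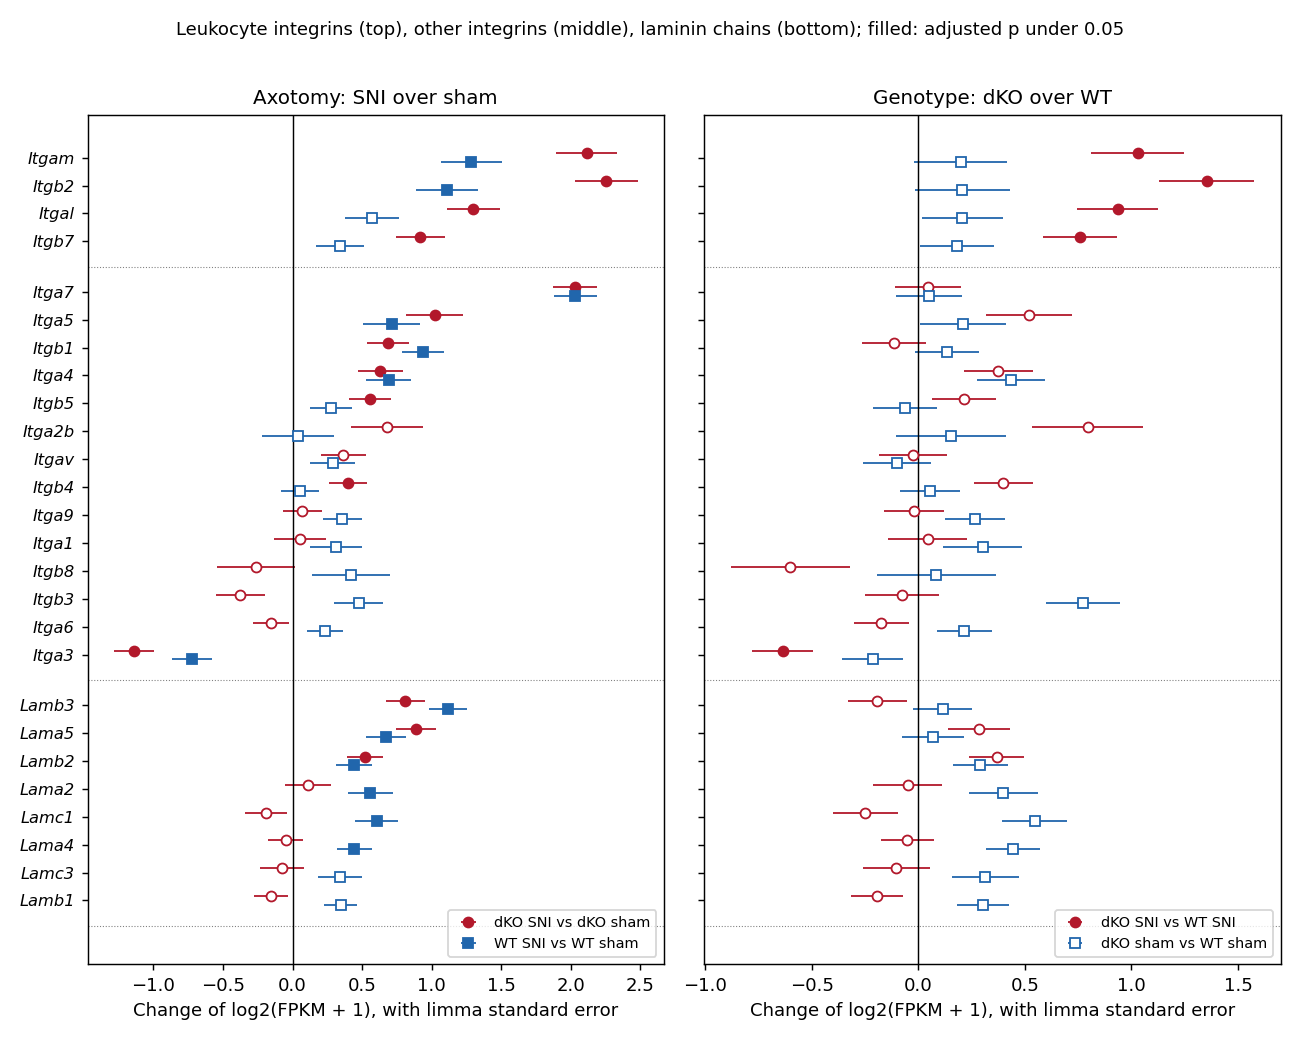
Log2 change of log2(FPKM + 1) ± limma SE for each tested gene, on the left for dKO SNI against dKO sham and WT SNI against WT sham, on the right for dKO against WT within SNI and within sham; filled symbols have an adjusted p below 0.05. Itga7 lies near 2 in both genotypes on the left, and on the right the leukocyte chains lie between 0.76 and 1.35 within SNI.

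Other genes of the adhesion pathway were counted from lists by role. Of 27 tested integrin activators and adhesion plaque proteins, 11 were called higher and 6 lower in SNI than in sham, against 29.5% and 25.5% of all genes, and the median change was 0.07, against 0.04 over all genes. Those with the smallest p were Flna, the actin crosslinker that binds integrin tails (1.30 ± 0.09, limma, adjusted p = 9.97e-06), Tln2, a talin (-1.22 ± 0.10, adjusted p = 1.98e-05), and Parvg, a parvin of blood cells (1.06 ± 0.09, adjusted p = 3.19e-05). In dKO against WT, where 11.8% and 10.4% of all genes were called, 6 were higher and 2 lower with a median of -0.06. The smallest p-values were those of Parvg (0.71 ± 0.09), Apbb1ip, which recruits talin in leukocytes (0.58 ± 0.11), and Flna (0.47 ± 0.09).

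Of 15 tested integrin ligands other than laminins, 11 were called higher and 2 lower in SNI than in sham, against 29.5% and 25.5% of all genes. Their median change was 0.65, against 0.04 over all genes. Icam1, the ligand of the Itgal chain, rose by 0.95 ± 0.11 (limma, adjusted p = 0.000108), and Vcam1, a ligand of the Itga4 chain, by 0.93 ± 0.13 (adjusted p = 0.000353). Cdh1, E-cadherin, which binds the Itgae chain, fell by 1.09 (SE 0.12, adjusted p = 9.84e-05). In dKO against WT, 2 were higher and 1 lower, namely Icam1 (0.54 ± 0.11), Vcam1 (0.52 ± 0.13) and Cdh1 (-0.64 ± 0.12). Of all genes, 11.8% were called higher and 10.4% lower there. In both directions together, 20% of these ligands were called, close to the 22.2% of all genes.

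Of 14 tested basement membrane partners and other laminin receptors, 8 were called higher and 2 lower in SNI than in sham, against 29.5% and 25.5% of all genes. Their median change was 0.30, against 0.04 over all genes. Sdc1, a syndecan that binds laminins, rose by 2.17 ± 0.10 (limma, adjusted p = 2e-06), Nid2 by 0.65 ± 0.08 (adjusted p = 0.000213) and Nid1 by 0.64 ± 0.08 (adjusted p = 0.000243); the nidogens link laminin to collagen IV. In dKO SNI against WT SNI alone, 2 were higher and 3 lower, where 10.7% and 13.4% of all genes were called higher and lower. With surgeries averaged, dKO against WT had 4 higher and 0 lower, against 11.8% and 10.4% of all genes, with a median of 0.23. Among the 4 were Agrn, the proteoglycan agrin (0.48 ± 0.09, limma, adjusted p = 0.0143), and Nid1 (0.39 ± 0.08, adjusted p = 0.0168). Rpsa, which encodes a ribosomal protein also described as a laminin receptor, was another (0.54 ± 0.13, limma, adjusted p = 0.0219).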

How the data were processed

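Per the labels' protocols, RNA was purified on columns and sequenced from both ends of TruSeq fragments, with no strand setting stated. The authors deposited 1 table of FPKM values with 21878 rows and 8 columns, all matched to samples by name. Tools listed, per the submitters' processing notes, were the aligner HISAT2 (2.0.4), the quantifier StringTie (1.3.0) and edgeR, with the builds GRCm38.p4 and mm10, without roles. FPKM divides by library total and transcript length, so abundant transcripts lower the others. Annotation and further scaling: not given in the sources used here. Read depth is unknown, since low values did not step in whole reads.

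Here log2(FPKM + 1) was fitted, for genes reaching 1 FPKM in 2 or more libraries, with limma 3.58.1 in R 4.3.3, with 4 group means, 4 residual degrees of freedom, a mean-variance trend, two-sided tests and Benjamini-Hochberg adjustment over 12884 genes in each of 7 contrasts. The fit was checked on simulated data. Pearson's r between replicates, across genes, was 0.984 to 0.989. The genes, lists and tests were chosen with earlier results of these data known. Values per library are given for all leukocyte chains, the other members called in a comparison, and the 3 nearest the threshold for the difference in response; pathway lists name the 3 genes with the smallest p. Gene positions and overlapping exons come from GENCODE M21. Alternatives were another offset, scaling or filter, a replicate term and each library left out. Values of 1 gene of the families are not reported here.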

Additional observations from a re-analysis of the deposited data

Results flagged for a closer look

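For 4 genes both dKO SNI libraries lay below both dKO sham libraries while both WT SNI libraries lay above both WT sham libraries. The difference between the responses was tested for each and none was called. Itga6 had 12.6 and 10.4 FPKM in dKO SNI ganglia, 12.8 and 12.9 in dKO sham, 12.5 and 13.6 in WT SNI and 11 and 10.9 FPKM in WT sham ganglia, and its difference of responses was -0.39 (limma, adjusted p = 0.356). For Itgb3, whose levels are given above, the difference was -0.85 (limma, adjusted p = 0.251). Lamb1 had 16.1 and 17.5 FPKM in dKO SNI ganglia, 18 and 19.6 in dKO sham, 19.5 and 19.2 in WT SNI and 14.3 and 15.7 FPKM in WT sham ganglia, with a difference of -0.50 (limma, adjusted p = 0.281). Lamc3 had 1.15 and 1.05 FPKM in dKO SNI ganglia, 1.20 and 1.23 in dKO sham, 0.990 and 1.57 in WT SNI and 0.853 and 0.715 FPKM in WT sham ganglia, with a difference of -0.42 (limma, adjusted p = 0.399). The same division of libraries separates those with and without Y-linked transcripts, so the 2 cannot be told apart.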

How the results depend on the processing

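Of 116 alternative counts of called integrin and laminin genes, 99 stayed within 1.5 times the reported count and none of the genes called changed direction. The 116 include those for dKO sham against WT sham and for the difference of responses. There the reported count was 0 and another 0 is taken as unchanged, so the 99 do not measure the stability of counts above 0 alone. A filter at a mean of 5 FPKM, which leaves fewer genes to test, gave 8 calls in dKO SNI against dKO sham, 8 in WT SNI against WT sham, 3 in dKO SNI against WT SNI, 8 in averaged SNI against sham and 4 in averaged dKO against WT. Quantile scaling gave 8 in WT SNI against WT sham, and no filter gave 1 in averaged dKO against WT, which was Itgax, while all 7 reported calls were lost (adjusted p of 0.0512 to 0.0708); the cause was not tested. With each library left out in turn, calls ranged from 12 to 15 in dKO SNI against dKO sham, 5 to 14 in WT SNI against WT sham (5 without WT SNI 2 and 6 without WT sham 1 or WT sham 2), 0 to 7 in dKO SNI against WT SNI (0 without WT SNI 1 or dKO SNI 2), 13 to 16 in averaged SNI against sham and 0 to 7 in averaged dKO against WT (0 without WT SNI 1 or dKO sham 2, 1 without WT sham 1, 2 without WT sham 2 or dKO SNI 2), and stayed at 0 in dKO sham against WT sham and in the difference of responses. Calls that held in every alternative were 10 of 14 in dKO SNI against dKO sham (not Itga4, Itgb4, Itgb5 and Lamb2), 4 of 13 in WT SNI against WT sham (Itga7, Itgam, Itgb1 and Lamb3), 0 of 5 in dKO SNI against WT SNI, 13 of 15 in averaged SNI against sham (not Itgav and Lama2) and 0 of 7 in averaged dKO against WT. The labels do not say whether equal replicate numbers pair the samples. Correlations of deviations ran from -0.188 to 0.254 over 6 group pairs, which cannot exclude pairing with 2 libraries per group. A replicate block gave 13, 14, 6, 15 and 8 calls in those 5 comparisons. Scalings moved the median of all genes by less than 0.1 on the log2 scale. The unknown depth means that counting error behind values under 1 FPKM is unknown.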
